A study of Mus musculus with 14 samples.

Results

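Of the genes that drive and carry out cell division, 32 were followed here across embryoid bodies made from mouse embryonic stem (ES) cells, and 31 of them were measured among 19938 genes in all. They were picked by their known roles in mitosis, in the licensing of replication origins and in S phase. Ccnb1 had no probe set with 1 gene symbol in the annotation used here and was not analysed. Embryoid bodies are floating aggregates in which ES cells differentiate and form the first mesoderm. The cells carry the transcription factors ER71 (encoded by Etv2) and GATA2 under a doxycycline switch. The sample titles and the genotype field add Scl (encoded by Tal1), whereas the sample descriptions name only the other factors. The study, described as coming from 3 independent experiments, asks what these factors turn on and off on the way to the hemangioblast, the shared precursor of blood and endothelium.

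Induced cells received doxycycline at 1 µg/ml from day 2 of differentiation and gave 1 array at day 2.25, which is 6 h of treatment, 3 at day 2.5, which is 12 h, and 3 at day 3, which is 24 h. Controls are untreated cells of the same lines and days (1, 3 and 3 arrays), although their genotype field reads wild-type. Replicates 1 and 2 are of the line iEGS and replicate 3 is of a line called iB1, so line and replicate number cannot be told apart for the latter. The ES cells had been kept on mouse embryonic fibroblast feeders before differentiation. No group of doxycycline without the factors was analysed here. An array reads the RNA of a whole culture, so fewer dividing cells and less RNA per cell cannot be told apart. The transcripts of the induced factors lay higher in induced cells than in controls of the same day at 12 h and at 24 h. Gata2 had a log2 change of 4.44 ± 0.179 at 12 h and 3.95 ± 0.179 at 24 h (limma standard errors, as with every ± below, limma adjusted p = 1.07e-08 and 1.09e-08).

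Cell division runs as a cycle in which cyclins switch on cyclin-dependent kinases. Cyclin E and the E2F factors open S phase, the MCM helicase is loaded on origins by CDC6 and CDT1 before DNA is copied, and cyclins A and B with CDK1 drive mitosis, which ends when the anaphase-promoting complex and CDC20 have the cyclins destroyed. Mouse ES cells and the early epiblast are known for very short gap phases and for cyclin E that varies little over the cycle, and their cycle lengthens as they differentiate. A bulk transcript level is not a measure of division rate.

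The promoters of these genes carry known control elements, and 4 of them are shown because they stand for the kinds of element found in the set. RefSeq promoter windows (GRCm38.p6, 250 bases before to 50 after the start) were at hand for 25 of the 32 genes, 26 windows in all. Capitals mark every match, on either strand, to the CHR element (TTTGAA), which recruits the MuvB complexes that hold mitotic genes off in early cycle phases, the CCAAT box (CCAAT), bound by NF-Y, and an E2F-type motif (TTTGGCGC, TTTCCCGC, TTTGGCGG or TTTCGCGC). Ccnb2 (cyclin B2, chr9:70421505-70421804, minus strand) and Cdk1 (the mitotic kinase, chr10:69352863-69353162, minus strand) represent mitosis, Mcm5 (a helicase subunit, chr8:75109259-75109558, plus strand) represents licensing, and Ccne1 (cyclin E1, chr7:38107441-38107740, minus strand) is the gene with the largest change with time below.

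Ccnb2: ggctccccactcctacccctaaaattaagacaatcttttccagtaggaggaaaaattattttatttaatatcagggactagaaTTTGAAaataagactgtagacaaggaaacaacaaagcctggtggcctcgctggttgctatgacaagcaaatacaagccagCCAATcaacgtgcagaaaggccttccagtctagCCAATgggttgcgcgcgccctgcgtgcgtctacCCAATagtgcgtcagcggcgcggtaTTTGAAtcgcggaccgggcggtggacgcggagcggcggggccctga
Cdk1: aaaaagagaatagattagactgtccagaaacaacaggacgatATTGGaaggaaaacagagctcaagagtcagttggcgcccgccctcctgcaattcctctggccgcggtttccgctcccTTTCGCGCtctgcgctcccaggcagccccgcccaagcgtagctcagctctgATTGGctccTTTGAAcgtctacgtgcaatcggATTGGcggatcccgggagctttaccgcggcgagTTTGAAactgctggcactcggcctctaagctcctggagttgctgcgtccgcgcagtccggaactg
Mcm5: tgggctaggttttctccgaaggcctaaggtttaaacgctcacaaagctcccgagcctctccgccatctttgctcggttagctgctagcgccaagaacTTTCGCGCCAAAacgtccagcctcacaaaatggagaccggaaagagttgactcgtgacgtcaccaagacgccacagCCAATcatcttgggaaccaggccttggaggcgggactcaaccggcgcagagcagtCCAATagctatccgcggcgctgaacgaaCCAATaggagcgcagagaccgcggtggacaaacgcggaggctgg
Ccne1: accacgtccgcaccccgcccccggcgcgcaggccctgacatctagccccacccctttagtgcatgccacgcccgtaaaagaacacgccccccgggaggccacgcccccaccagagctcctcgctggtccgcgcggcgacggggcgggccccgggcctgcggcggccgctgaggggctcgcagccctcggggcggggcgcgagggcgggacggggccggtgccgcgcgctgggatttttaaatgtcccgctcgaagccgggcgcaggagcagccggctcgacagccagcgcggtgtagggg

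The Ccnb2 window holds 2 CHR matches and 3 CCAAT boxes, the Cdk1 window 2 CHR matches, 3 CCAAT boxes and 1 E2F-type match. In the Mcm5 window 2 E2F-type matches on opposite strands overlap, beside 3 CCAAT boxes. None of these letters occurs in the Ccne1 window. The CHR letters were found in 6 of 8 windows of mitotic cyclin, kinase and checkpoint genes and in 4 of 5 of spindle and chromosome genes, against 1 of 8 of licensing genes and 0 of 5 of S phase genes. They occur in 17.9% of all 32851 promoter windows given. The E2F-type motif was in 6 of 8 licensing windows, 1 of 8 and 0 of 5 of the mitotic sets and 0 of 5 S phase windows (2.37% of all windows), and the CCAAT box in 22 of the 26 (37.4% of all windows). A match describes letters only. Only these exact letters were sought, so a window without a match can still hold a variant of the element.

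A pair of arrays stood apart in opposite directions and touch every result at 24 h. On replicate 3 of the induced 24 h group, 30 of the 31 genes lay below both other arrays of the group, with a median deviation from the group mean of -0.261. On replicate 1 of that group 25 of the 31 lay above both others, with a median deviation of 0.253. When array weights were estimated from all genes, replicate 1 had the lowest of the 12 (0.27) and replicate 3 the next (0.318), against 3.32 for replicate 2. Replicate 3 also had the narrowest spread of signal over all genes (SD 1.91 on the log2 scale, against 2.04 to 2.22 on the other tested arrays). Of the 1636 other genes of a similar mean signal (8.60 to 10.29), 73.2% were lowest on it. The median deviation of those 1636 genes was 0.153 on replicate 1 and -0.182 on replicate 3. The median of the 31 genes at 24 h is therefore also given with each of these arrays left out, as are the 24 h changes of some single genes. The other single-gene values at 24 h come from all arrays and can also move when an array is left out. The part of signal spread in these values was not tested.

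None of the 31 genes passed the test after 12 h or 24 h of induction. At 12 h, 0 were called higher and 0 lower at a limma adjusted p under 0.05, where 0.813% of all genes were called higher and 0.577% lower. At 24 h the counts were again 0 and 0, where 2.03% of all genes were called higher and 3.43% lower. Shares of this size leave few calls to expect among 31 genes. All 31 had a mean signal above the median of all genes (5.56), and 63.2% of all genes were dimmer than the dimmest of them. Shares called among genes of similar signal were not computed. At an unadjusted p under 0.05, 1 gene was lower at 12 h (Ccne1) and 3 were lower at 24 h (Ccne1, Bub1 and Mcm7), with 0 higher at either time. Of all genes 3.23% were lower and 3.73% higher at that threshold at 12 h, and 9.75% and 6.39% at 24 h. The log2 changes at 12 h ran from -0.41 (Ccne1) to 0.17 (Mki67), with a median of -0.051 against -0.0087 over all genes. At 24 h they ran from -0.49 (Cenpf) to 0.042 (Kif11), with a median of -0.128 against -0.004 over all genes, and 27 of 31 were below 0. Without replicate 3 of the induced 24 h group the median at 24 h was 0.013 and 14 of 31 were below 0, and again none was called. Without replicate 1 of that group the median was -0.237, all 31 were below 0 and 2 were called lower (Bub1 and Cenpf). The median at 24 h thus depends on which array is left out. In all 3 same-numbered pairs 13 genes were lower and 3 higher at 12 h (20.6% and 17.0% of all genes), and 9 and 0 at 24 h (20.4% and 19.1%).

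How large a change these arrays leave room for is given by the intervals. The unadjusted 95% intervals of all 31 genes lay within a 2-fold change either way at 12 h, and those of 24 genes lay within 1.5-fold. At 24 h 30 genes lay within 2-fold and 23 within 1.5-fold. The exception was Cenpf, whose interval reached down to -1.09. The intervals rest on a spread per gene that the fit shares between all groups. The median SD of these genes was 0.276 in the induced 24 h group and 0.0949 to 0.132 in the other groups. The 24 h intervals may therefore be too narrow, above all for Cenpf (SD 0.73 in that group). In the same cultures 8 of 10 endothelial and blood progenitor markers passed higher at 24 h, led by Fli1 (4.27 ± 0.17), and 6 of 7 primitive streak markers passed lower, led by Mesp1 (-4.36 ± 0.232).

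**Figure D1:**
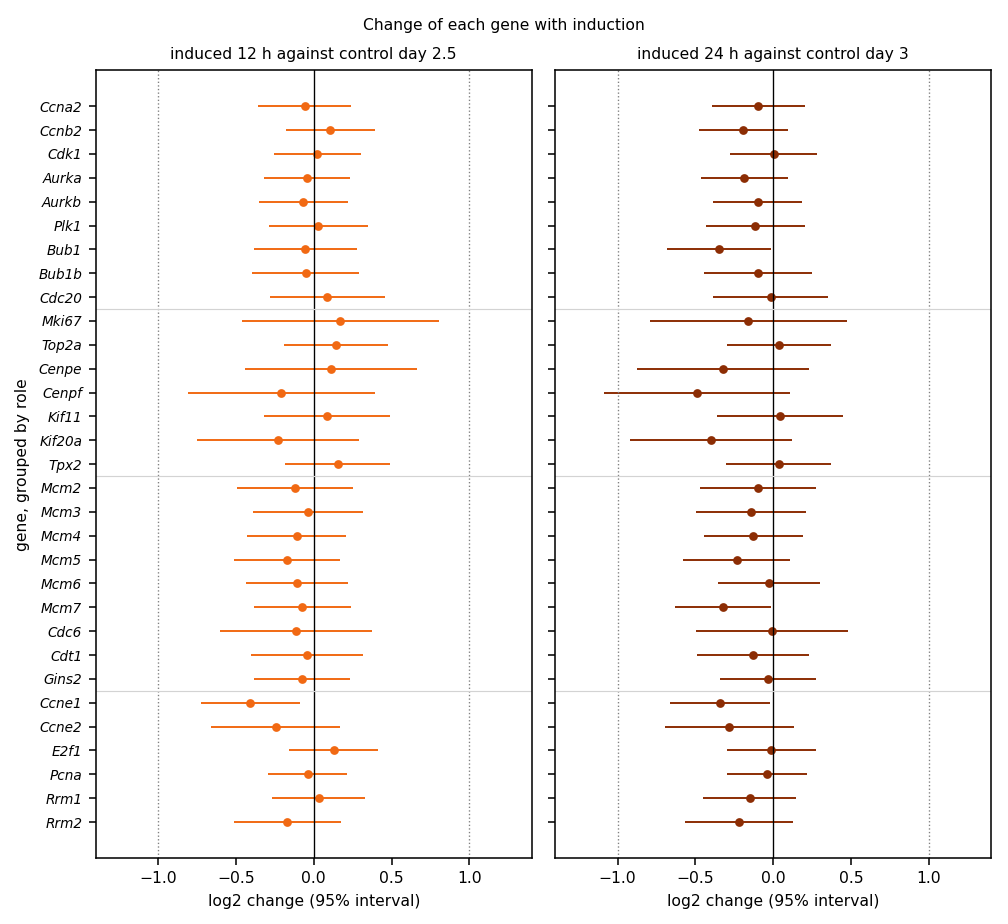
Log2 change (points) and its unadjusted 95% interval (lines) for the 31 genes after 12 h (left) and 24 h (right) of induction against the control of the same day, from the limma fit of 12 arrays, 3 per group. Dotted lines mark 2-fold, and only the line of Cenpf at 24 h crosses one, reaching -1.09.

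Of the 9 mitotic cyclin, kinase and checkpoint genes, 0 passed at 12 h or 24 h. Cdk1, the kinase that triggers mitosis, lay at 10.31, 10.15 and 10.37 on the day 2.5 control arrays (replicates 1 to 3, log2 expression, as in all lists of 3 below) and at 10.31, 10.29 and 10.30 after 12 h of induction. It was at 10.26, 10.31 and 10.23 on the day 3 controls and 10.42, 10.31 and 10.08 after 24 h. The groups overlapped at both times, and the log2 changes were 0.023 ± 0.13 and 0.0037 ± 0.13 (limma adjusted p = 0.999 and 0.994). Without replicate 1 or 3 of the induced 24 h group the 24 h change was -0.072 or 0.099. Ccna2 (cyclin A2), Ccnb2, the Aurora kinase genes Aurka and Aurkb, Plk1 (polo-like kinase), the spindle checkpoint kinase genes Bub1 and Bub1b and Cdc20 had log2 changes between -0.066 (Aurkb) and 0.107 (Ccnb2) at 12 h. At 24 h these 8 lay between -0.35 (Bub1) and -0.017 (Cdc20). Without replicate 3 of the induced 24 h group 5 of the 9 genes of this role were below 0 at 24 h (median -0.037), and without replicate 1 all 9 (median -0.174). For Bub1 the 24 h change was -0.35 ± 0.154 (limma adjusted p = 0.28). Bub1 was at 10.07, 9.73 and 9.43 on the induced arrays and 10.15, 10.01 and 10.12 on the controls, so that replicate 1 of the induced group lay within the control range and the other pair below it. Without replicate 1 of the induced 24 h group Bub1 passed lower (-0.51, limma adjusted p = 0.0331), and without replicate 3 it did not (-0.19, limma adjusted p = 0.698).

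Of the 7 spindle, kinetochore and chromosome genes 0 passed at either time. The highest SD between replicates of the set was that of Mki67 in 3 groups (0.317, 0.327 and 0.435) and of Cenpf in the induced 24 h group (0.73), whereas Tpx2 had the lowest of the set in day 3 controls (0.00906). Mki67, which encodes the Ki-67 protein that coats mitotic chromosomes, was at 9.41, 8.80 and 8.96 on day 2.5 controls and 9.57, 8.92 and 9.19 after 12 h. It was at 9.78, 9.00 and 9.05 on day 3 controls and 9.79, 8.99 and 8.57 after 24 h. Replicate 1 was the highest array in each of the 4 groups, and the induced and control values overlapped at both times (0.17 ± 0.295 and -0.16 ± 0.295, limma adjusted p = 0.999 and 0.834). The 24 h change of Mki67 was -0.50 without replicate 1 of the induced group and 0.116 without replicate 3. Top2a (topoisomerase II alpha, which untangles chromosomes) was at 10.65, 10.27 and 10.48 and 10.70, 10.51 and 10.62 at day 2.5, and at 10.73, 10.54 and 10.53 and 10.93, 10.54 and 10.44 at day 3, control before induced. Its changes were 0.142 ± 0.156 and 0.038 ± 0.156 (limma adjusted p = 0.999 and 0.937), the latter being -0.108 or 0.135 without replicate 1 or 3 of the induced group.

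Cenpf and Kif20a had the largest 24 h differences of the set. Cenpf, a protein of the outer kinetochore, was at 9.44, 8.94 and 9.26 on day 3 controls and 9.53, 8.52 and 8.12 on induced arrays, so that replicate 1 of the induced group lay above every control and the other pair below every control. The change was -0.49 ± 0.28 (limma adjusted p = 0.426). Cenpf passed lower without replicate 1 of the induced 24 h group (-0.90, limma adjusted p = 0.0119) and not without replicate 3 (-0.19, limma adjusted p = 0.897). At day 2.5 Cenpf was at 9.31, 8.97 and 8.95 on controls and 9.14, 8.74 and 8.73 on induced arrays (-0.21 ± 0.28, limma adjusted p = 0.999). Kif20a, a kinesin needed for cytokinesis, was at 8.94, 8.60 and 8.64 and 8.78, 8.42 and 7.78 at day 3 (-0.40 ± 0.243, limma adjusted p = 0.46), and at 9.11, 8.50 and 8.70 and 8.88, 8.24 and 8.50 at day 2.5 (-0.23 ± 0.243, limma adjusted p = 0.999). Those groups overlapped at both times, while Kif20a was lower in each of the 6 same-numbered pairs. The differences were -0.231, -0.262 and -0.198 at 12 h and -0.162, -0.182 and -0.861 at 24 h. Of all genes 20.6% were lower in all 3 pairs at 12 h and 20.4% at 24 h. The share lower in all 6 pairs was not computed, and the pairing at 24 h is uncertain for replicates 2 and 3. The 24 h change of Kif20a was -0.63 without replicate 1 of the induced group and -0.129 without replicate 3. Cenpe, the kinesin that moves chromosomes to the spindle equator, was at 9.03, 8.57 and 8.79 on controls and 9.16, 8.36 and 7.90 on induced arrays at day 3, with the induced arrays both above and below the controls (-0.32 ± 0.257, limma adjusted p = 0.594). That change was -0.67 without replicate 1 of the induced group (limma adjusted p = 0.0509) and -0.037 without replicate 3. At day 2.5 it was at 8.92, 8.33 and 8.56 and 8.85, 8.67 and 8.61, which overlap. The spindle motor gene Kif11 and the spindle assembly gene Tpx2 had log2 changes of 0.084 and 0.154 at 12 h and of 0.042 and 0.035 at 24 h, none past the test. At 24 h these became -0.205 and -0.124 without replicate 1 of the induced group and 0.209 and 0.156 without replicate 3.

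The 9 licensing and helicase genes all had a log2 change below 0 at both times, and every 95% interval at 12 h included 0. The 9 values ran from -0.171 (Mcm5) to -0.034 (Mcm3) at 12 h and from -0.32 (Mcm7) to -0.0057 (Cdc6) at 24 h, and 0 of 9 passed the test at either time. Without replicate 3 of the induced 24 h group 2 of the 9 were below 0 at 24 h, and without replicate 1 all 9 (median -0.255). Mcm2, a subunit of the MCM helicase, was at 10.24, 10.06 and 9.99 on controls and 10.17, 9.93 and 9.82 on induced arrays at day 2.5, and at 10.03, 9.66 and 9.64 and 9.95, 9.72 and 9.35 at day 3. These ranges overlap at both times (-0.121 ± 0.174 and -0.100 ± 0.174, limma adjusted p = 0.999 and 0.822), and at 24 h the change was -0.237 or 0.060 without replicate 1 or 3 of the induced group. Mcm7, another subunit, was the only gene whose induced and control arrays did not overlap at 24 h, with 9.90, 9.76 and 9.59 on controls and 9.57, 9.48 and 9.23 on induced arrays (-0.32 ± 0.145, limma adjusted p = 0.283). Leaving out replicate 1 or 3 of the induced group gave -0.39 and -0.23. Of all genes 10.9% were lower and 7.6% higher without overlap at 24 h, so 1 gene lower and 0 higher of 31 lie under that share. The loading factor genes Cdc6 and Cdt1, and Gins2 of the GINS complex that activates the helicase, had log2 changes of -0.113, -0.044 and -0.073 at 12 h and of -0.0057, -0.130 and -0.033 at 24 h. Without replicate 1 of the induced 24 h group these were -0.31, -0.152 and -0.116, and without replicate 3 they were 0.266, 0.0037 and 0.096.

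Among S phase genes Ccne1 was lower in induced cells at both times, but not past the test over all genes. Ccne1 encodes cyclin E1, the partner of CDK2 at the start of S phase. It was at 9.77, 9.72 and 9.54 on day 2.5 controls and 9.44, 9.16 and 9.21 after 12 h, and all induced arrays lay below all controls (-0.41 ± 0.149, limma adjusted p = 0.4). It was at 9.18, 9.06 and 8.83 on day 3 controls and 8.74, 8.83 and 8.47 after 24 h, where replicate 2 of the induced group lay level with the lowest control (-0.34 ± 0.149, limma adjusted p = 0.267, and -0.24 at 0.612 without replicate 3 of the induced group). In each of the 6 same-numbered pairs the induced array was lower, with the same limits as for Kif20a. The effects at both times did not pass the test of a difference (0.063 ± 0.211, limma adjusted p = 0.999).

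Ccne2, the second cyclin E gene, was at 7.89, 7.38 and 7.61 and 7.44, 7.23 and 7.48 at day 2.5 and at 8.05, 7.68 and 7.29 and 7.60, 7.34 and 7.23 at day 3, control before induced. The groups overlapped, with changes of -0.24 ± 0.194 and -0.28 ± 0.194 (limma adjusted p = 0.999 and 0.531). Ccne2 was lower in each of the 6 same-numbered pairs, with the limits given for Kif20a. E2f1, which encodes an activating E2F factor, was at 6.52, 6.51 and 6.48 and 6.70, 6.67 and 6.53 at day 2.5, without overlap and with the induced arrays higher (0.128 ± 0.134, limma adjusted p = 0.999). At day 3 it was at 6.42, 6.09 and 6.32 and 6.26, 6.41 and 6.13, which overlap (-0.013 ± 0.134, limma adjusted p = 0.975). The E2f1 value with replicate 3 of the induced arrays left out was 0.054. At 12 h 1 of 31 genes (E2f1) was higher and 3 (Ccne1, Mcm5 and Rrm2) lower without overlap, where 6.78% and 7.72% of all genes were.

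Pcna, the sliding clamp of the replication fork, had the smallest standard error of the set. It was at 11.56, 11.53 and 11.55 and 11.47, 11.50 and 11.56 at day 2.5 and at 11.46, 11.54 and 11.52 and 11.55, 11.51 and 11.34 at day 3, overlapping at both times (-0.04 ± 0.119 and -0.039 ± 0.119, limma adjusted p = 0.999 and 0.907). Without replicate 1 or 3 of the induced group the 24 h change was -0.081 or 0.025. A second Pcna probe set differed from it by at most 0.0142 on any array, so the probe sets may read the same transcripts or a near-identical copy, and their levels are uncertain in that respect. Rrm1 and Rrm2, the subunits of the ribonucleotide reductase that supplies deoxynucleotides, had log2 changes of 0.033 and -0.169 at 12 h and of -0.152 and -0.22 at 24 h (-0.254 and -0.30 without replicate 1 of the induced group, -0.044 and -0.042 without replicate 3). Rrm2 was lower in each of the 6 same-numbered pairs, again with the limits given for Kif20a. Top2a also had a second, dimmer probe set. Its log2 change was 0.58 at 12 h and -0.24 at 24 h, against 0.142 and 0.038 for the brighter one.

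**Figure D2:**
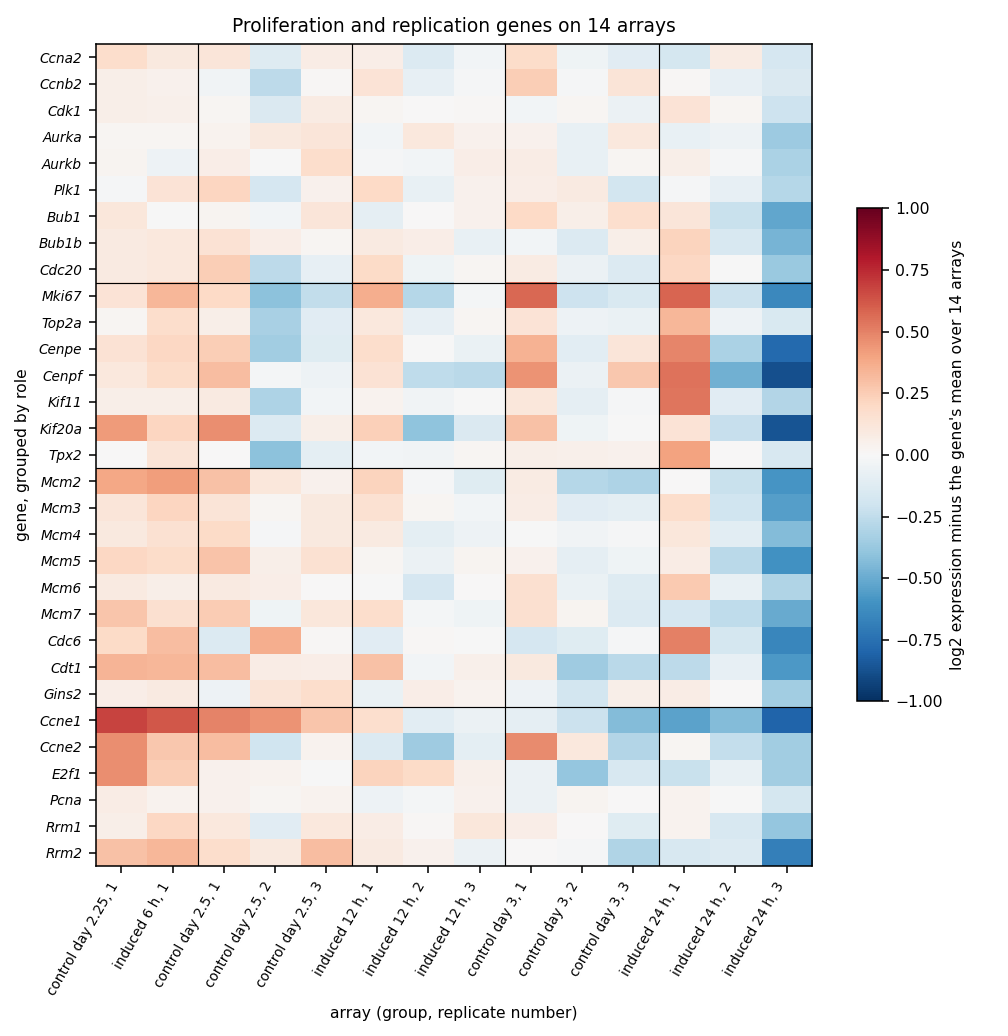
Log2 expression of the 31 genes on the 14 arrays, each minus its own mean over the arrays (colour, in log2 units, limited to -1 and 1), with genes grouped by role and arrays by group. Ccne1 goes from red to blue with time in controls and induced cells, and replicate 3 of the induced 24 h group is the bluest column.

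The clearest pattern in the set was with time, in Ccne1. From the single day 2.25 control (9.94) its level went to group means of 9.68 at day 2.5 and 9.02 at day 3, and in induced cells from 9.89 at 6 h to 9.27 at 12 h and 8.68 at 24 h. The day 3 controls all lay below the day 2.5 controls, and the induced 24 h arrays all below the induced 12 h arrays. Between the controls the log2 change was -0.65 ± 0.149 (limma adjusted p = 0.0658), and between induced groups -0.59 ± 0.149 (limma adjusted p = 0.0663). Neither passed over all genes as fitted, and both passed with the replicate number as a block (limma adjusted p = 0.0141 and 0.0165). That block takes same-numbered arrays as linked between days. Their correlation over all genes was as low as 0.0411 in controls (replicate 3) and -0.00474 in induced cells (replicate 2). With single arrays or numbers left out, the limma adjusted p reached 0.998 for the control days and 0.505 for induced cells. Without replicate 3 of the induced 24 h group the change in induced cells was -0.48 (limma adjusted p = 0.2). Ordered by mean, the groups ran day 2.25 control, induced 6 h, day 2.5 control, induced 12 h, day 3 control and induced 24 h. The first pair has 1 array each. Of the remaining neighbours in this order, the arrays of induced 12 h and the day 3 controls overlap, as do those of the day 3 controls and induced 24 h.

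Between the control days the next lowest limma adjusted p after Ccne1 was 0.838. From day 2.5 to day 3, 0 of 31 genes were called in untreated cells, where 0.562% of all genes were called higher and 0.196% lower. All 9 licensing genes had changes below 0 (median -0.142, lowest Cdt1 at -0.32 ± 0.168, limma adjusted p = 0.838), while 6 of 7 spindle and chromosome genes had changes above 0 (median 0.139), and neither group's shift was tested. Of 30 other kinetochore, spindle and condensin genes 14 had changes above 0 and 16 below (median -0.0113). The median over all genes was -0.0072. Cdt1 was at 8.90, 8.67 and 8.66 and then 8.69, 8.24 and 8.33 in controls, which overlap. Without overlap, 1 gene was higher (Tpx2, against 6.12% of all genes) and 4 lower (Mcm5, Ccne1, E2f1 and Rrm2, against 7.49%).

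In induced cells from 12 h to 24 h again 0 of 31 genes were called, with 0.557% of all genes higher and 1.25% lower. At an unadjusted p under 0.05, 5 were lower, namely Ccne1, Cdt1, E2f1, Mcm7 and Rrm2, and 0 higher, where 7.91% of all genes were lower and 4.18% higher. Cdt1 was at 8.89, 8.57 and 8.65 and then 8.34, 8.52 and 8.02, all later arrays below all earlier ones (-0.41 ± 0.168, limma adjusted p = 0.326), and E2f1 likewise (-0.37 ± 0.134, limma adjusted p = 0.25). In all, 6 genes were lower without overlap (Aurka, Mcm7, Cdt1, Ccne1, E2f1 and Rrm2, against 9.57% of all genes) and 0 higher (5.85% of all genes). The median change was -0.144. With replicate 3 of the later group left out it was 0.011, and with replicate 1 left out -0.337, all 31 genes then being below 0.

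The change of the induction effect from 12 h to 24 h was tested directly. None of the 31 genes passed, where 0.1% of all genes were called higher and 0.326% lower. The largest were Cenpe (-0.43 ± 0.364) and Mki67 (-0.33 ± 0.417), both at a limma adjusted p of 0.999. Without replicate 1 of the induced 24 h group they were -0.78 and -0.67 (limma adjusted p = 0.285 and 0.467), and without replicate 3 they were -0.147 and -0.054. The median over the 31 genes was -0.087, with 0.053 without replicate 3 and -0.202 (29 of 31 below 0) without replicate 1. All 16 mitotic and spindle genes had changes below 0 with all arrays, against 4 of 9 and 3 of 7 without replicate 3 and 8 of 9 and 7 of 7 without replicate 1.

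**Figure D3:**
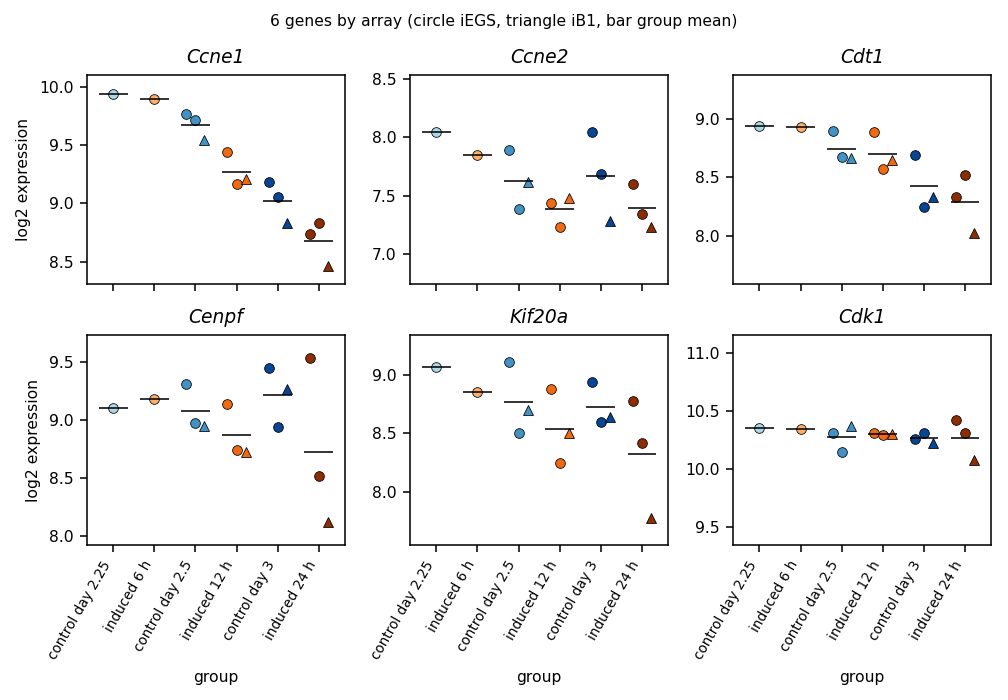
Log2 expression of 6 genes on each array, by group (circles iEGS, triangles iB1, bars group means; every panel spans 1.8 log2 units). Ccne1 steps down with time and lies lower in induced than control cells of the same day, Cdk1 stays between 10.08 and 10.42, and Cenpf and Kif20a spread most in the induced 24 h group.

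After 6 h of induction no gene of the set was 2-fold apart from the day 2.25 control, where 0.221% of all genes were at least 2-fold higher and 0.135% at least 2-fold lower. With 1 array per group there is no test. The log2 differences ran from -0.222 (E2f1, 6.95 in the control and 6.72 induced) to 0.192 (Mki67, 9.35 and 9.54). Their median was 0.0037, with 16 genes higher and 15 lower. The median SD of these genes between replicate arrays of the later groups was 0.127. Cdk1 was at 10.35 and 10.34, Top2a at 10.62 and 10.77, Mcm2 at 10.33 and 10.36 and Pcna at 11.59 and 11.55, in the control and the induced cells in turn.

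How well the arrays agree sets the precision of all of the above. The median SD of the 31 genes within a group was 0.132 for day 2.5 controls, 0.0949 for induced 12 h, 0.123 for day 3 controls and 0.276 for induced 24 h, against 0.18, 0.147, 0.157 and 0.255 over all genes. Across the 31 genes the correlation between arrays lay between 0.947 and 0.994 within groups and between 0.918 and 0.996 across groups, a description in which the arrays share probes. The array of replicate 1 was the highest of its group for 22, 20, 24 and 25 of the 31 genes in day 2.5 controls, induced 12 h, day 3 controls and induced 24 h. Its median deviation from the group mean in spindle and chromosome genes was 0.23, 0.14, 0.214 and 0.493. Other genes of similar signal deviated by 0.0597, 0.0359, 0.0478 and 0.153 on these arrays. The share of all genes that were highest on them was not computed. On replicate 3 of induced 24 h spindle and chromosome genes deviated by -0.546, licensing genes by -0.294, other genes of similar signal by -0.182 and all genes by -0.0277. In the same-numbered pairs at 24 h the median difference was 0.014 for replicate 1, -0.041 for replicate 2 and -0.337 for replicate 3. In the pair of replicate 3 all 31 genes were lower than in the control, led by Cenpf (-1.14). Of all genes 55.2% were lower in that pair, with a median difference of -0.0591. At 12 h the medians of the 31 genes were -0.061, -0.0028 and -0.075.

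**Figure D4:**
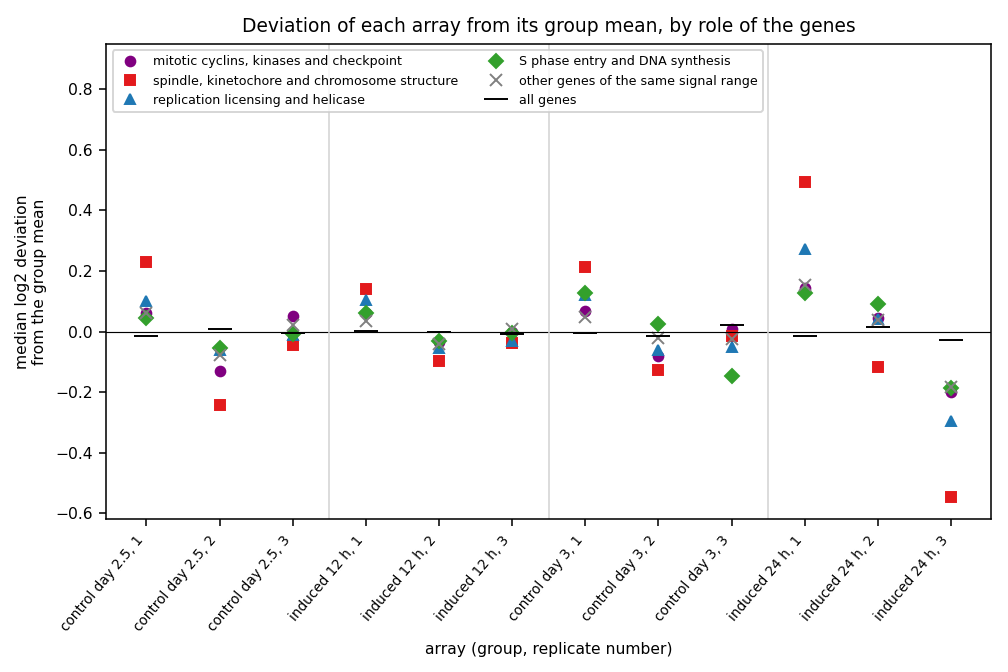
Median log2 deviation of each array from the mean of its group (3 arrays), for the 4 role groups, for 1636 other genes of similar mean signal and for all genes. Spindle and chromosome genes reach farthest, from 0.493 on replicate 1 to -0.546 on replicate 3 of the induced 24 h group, while the median over all genes goes no lower than -0.0277 on any array.

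Between the lines, 30 of 31 genes had lower values in iB1 than in iEGS, and 0 were called. Of all genes 0% were called higher and 0% lower by limma. The median log2 difference was -0.126 (all genes -0.0055), the largest were Mki67 (-0.34 ± 0.206, limma adjusted p = 0.64) and Cenpf (-0.31 ± 0.197, limma adjusted p = 0.644), and 2 genes reached an unadjusted p under 0.05 (Mcm2 and Ccne1, both lower), where 3.88% of all genes were lower and 3.79% higher. Without replicate 3 of the induced 24 h group the median was -0.033 with 19 of 31 lower, and without replicate 1 it was -0.087 with 26 lower. Line and any other feature of replicate 3 cannot be told apart.

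Other genes of the cycle machinery, listed by role, gave the same counts of 0. Of 16 further licensing and helicase genes, 25 replication fork and nucleotide genes, 30 kinetochore, spindle and condensin genes and 19 mitotic regulators, 0 passed at 12 h and 0 at 24 h, with medians of -0.151, -0.064, 0.038 and -0.042 at 12 h and -0.132, -0.185, -0.122 and -0.118 at 24 h. Within these lists the largest log2 changes at 24 h were those of Gins3, a subunit of the GINS complex (-0.56, limma adjusted p = 0.285), the DNA ligase gene Lig1 (-0.52, adjusted p = 0.0757), the spindle midzone gene Prc1 (0.48, adjusted p = 0.15) and Ube2s, which extends ubiquitin chains for the anaphase-promoting complex (-0.44, adjusted p = 0.369). At 12 h they were those of Orc4 (-0.27), Fen1 (-0.24), Prc1 (0.31) and Foxm1 (0.128), none past the test. The genes that passed were in lists of G1 and transcriptional regulators. Of 12 D cyclins, G1 kinases and inhibitors, Ccnd2 (cyclin D2) passed lower at 12 h (-1.38 ± 0.163, limma adjusted p = 0.000276), and Ccnd2 (-0.74 ± 0.163) and Cdk6, its partner kinase (-1.10 ± 0.215), passed lower at 24 h (limma adjusted p = 0.0133 and 0.00573). Of 12 E2F and pocket protein genes 0 passed at 12 h (largest E2f5, -0.34, limma adjusted p = 0.88), and E2f5, a repressor-type E2F (-0.92 ± 0.184), and Tfdp2, an E2F partner (-0.71 ± 0.163), passed lower at 24 h (limma adjusted p = 0.00698 and 0.0166). In the list of 14 Myc family and p53 target genes, 0 passed at 12 h (largest Mycn, -0.72, limma adjusted p = 0.0623), and Mycl (-1.14 ± 0.147), Perp (-1.03 ± 0.166) and Mycn (-0.81 ± 0.173) passed lower at 24 h (limma adjusted p = 0.000181, 0.00132 and 0.0105). Without replicate 3 of the induced 24 h group Tfdp2 no longer passed at 24 h (-0.57, limma adjusted p = 0.0596), and without replicate 2 neither Tfdp2 (-0.69, limma adjusted p = 0.0647) nor Ccnd2 did (-0.70, limma adjusted p = 0.0575). Cdk6, E2f5, Mycl, Mycn and Perp passed with any 1 of the 3 induced arrays left out. From 12 h to 24 h in induced cells Ccnd2 (1.15 ± 0.163, limma adjusted p = 0.00207) and Myc (0.94 ± 0.203, limma adjusted p = 0.0298) passed higher, and Gadd45a (-0.96 ± 0.224, limma adjusted p = 0.0453) lower. Here Ccnd2 passed with any 1 of the later arrays left out, whereas Myc and Gadd45a did not pass without replicate 3 (limma adjusted p = 0.0591 and 0.141) or without replicate 2 (0.102 and 0.142).

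Markers of other cells the cultures could hold were also read. Of 10 fibroblast markers 0 passed at 12 h and 1 at 24 h, Thy1 (0.98 ± 0.251, limma adjusted p = 0.0342, and 0.067 or 0.137 without replicate 3 or 2 of the induced group). The log2 of their summed signal lay between 8.59 and 9.31 on day 2.5 controls, 9.43 and 9.74 after 12 h, 8.71 and 9.02 on day 3 controls and 9.09 and 9.43 after 24 h. The summed signal was thus higher on induced arrays at both times. Thy1 carries that sum, with means of 7.86 and 8.89 at day 2.5 and 7.16 and 8.14 at day 3 (control, then induced), while the list's median changes were 0.07 and 0.053 with 4 and 5 of 10 markers lower. Among the others the group means ran from 2.44 (Lum, day 2.25 control) to 6.40 (Col1a2, induced 24 h), and those of Lum, Postn and Dcn, the dimmest, stayed between 2.44 and 4.77. The part of this signal in the values of the cycle genes was not tested. Of 7 visceral endoderm markers Foxa2 alone passed, lower at both times (-2.92 and -3.53), while 5 of the 7 had changes above 0 at each time. The dimmest of them, Afp, Ttr and Cubn, had group means between 3.12 and 3.92, so a loss of visceral endoderm cannot be read from this list. As for the label of the cells, ES cell and epiblast markers in controls of day 2.5 and day 3 ranged from Pou5f1 (means of 11.14 and 10.81) and Dppa5a (11.63 and 10.98) to Zfp42 (7.15 and 6.77) and Esrrb (5.75 and 5.03, near the median of 5.56 over all genes). In induced cells 2 of 10 passed lower at 12 h and 6 of 10 at 24 h.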

How the data were processed

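RNA of 14 cultures was amplified and hybridised to 1 Affymetrix array each. The authors deposited log2 expression values that, per the submitters' processing notes, came from RMA and Affymetrix Expression Console (versions not given in the sources used here). The arrays' distributions were close but not identical (SD over all probe sets 2.26 to 2.45), and how they were scaled together is not stated. Of 35556 probe sets 21789 had 1 gene symbol, 1621 several and 12146 were not listed in the platform annotation. The brightest single-symbol probe set stood for each of 19938 genes.

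The deposited log2 values of the 12 arrays at day 2.5 and day 3 were fitted with limma 3.58.1 in R 4.3.3 (group means, eBayes, 8 residual and 6.05 prior degrees of freedom), with Benjamini-Hochberg adjustment over all genes and a threshold of 0.05. The fit was also run on simulated data with independent arrays and the same spread per gene in all groups. That setting does not cover the wider spread of the induced 24 h arrays. The single arrays of day 2.25 have no test. With 3 arrays a group, the number of arrays limits the precision. Values in every array are given for the genes with the largest changes in each comparison and for standing examples of each role. Members and lists were chosen with earlier results of these data known.

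Same-numbered control and induced arrays deviated from their group means together. Their r over all genes was 0.573, 0.344 and 0.262 at 12 h, and 0.517, 0.157 and 0.261 at 24 h. The replicate numbers were therefore taken to pair these arrays, as if they numbered the study's 3 experiments. The labels do not state this outright. At 24 h, however, control replicate 2 and induced replicate 3 had a higher r (0.375) than the same-numbered pairs of replicates 2 and 3. Over the cycle genes the same-numbered r at 24 h was 0.254, 0.323 and -0.137. The pairing at 24 h is thus uncertain for replicates 2 and 3. Counts of same-numbered pairs at 24 h and the replicate block rest on it. Between days the same-numbered correlation over all genes was lower for some numbers (0.556, 0.221 and 0.0411 in controls, and 0.511, -0.00474 and 0.316 in induced cells). Alternatives covered the replicate block, line, normalization, centring, dim genes, probe sets, array weights and leaving out arrays.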

Additional observations from a re-analysis of the deposited data

How the results depend on the processing

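The count of 0 cycle genes called held for 12 h of induction, for the difference between the effects at 24 h and 12 h and for the lines under each alternative run. For 24 h it was 2 (Bub1 and Cenpf) with array weights and ranged from 0 to 2 when replicates were left out, with 1 (Cenpf) without replicate 1 and 2 (Bub1 and Cenpf) without replicate 1 of the induced 24 h group. Between the control days it was 1 (Ccne1) with the replicate block, line as a covariate, quantile normalization again, dim genes left out, array weights or an intensity trend. From 12 h to 24 h in induced cells it was 1 (Ccne1) with the replicate block, line as a covariate, dim genes left out, array weights or an intensity trend. Leaving out dim genes tests fewer genes; for the other alternatives the cause was not tested. The replicate block changed no other call among the 31 genes. The limma adjusted p of Ccne1 when single arrays or numbers were left out lay between 0.0997 and 0.998 for the control days and between 0.0533 and 0.505 for induced cells. Of the log2 changes of named genes under all alternatives, 951 stayed on their side of the threshold and 14 came to pass it. No named gene had passed as first fitted, so no call could be lost. Leaving out both day 3 arrays of iB1, or replicate 3 of the induced 24 h group for the lines, was chosen after seeing the data and gave 0. The median at 6 h stayed between -0.0199 and 0.0219. With 3 arrays a group and a spread shared by all groups, the 95% intervals of 7 of 31 genes at 12 h and 8 of 31 at 24 h reached past 1.5-fold.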
